A study of Homo sapiens with 6 samples.

Results

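The genes described here are the small nucleolar RNA (snoRNA) host genes of the SNHG series together with GAS5, EPB41L4A-AS1, ZFAS1, DANCR and CYTOR. They were chosen by gene symbol alone: every gene named SNHG followed by a number, plus those 5. The rule found 33 of the 62703 genes counted, all of them annotated as long noncoding RNA (lncRNA) genes, and 26 of the 33 passed the expression filter, beside 17901 genes in all. RNA-seq was performed in 22Rv1 cells, an established prostate cancer line that resists enzalutamide. In 3 libraries the cells had been transfected with siCtrl, a pool of non-targeting siRNAs, and in 3 with siMED12, a pool of siRNAs against MED12, which belongs to the kinase module of Mediator. Both groups received 25 pmol of siRNA with a lipid reagent 24 h after seeding, had a medium change after 6 h and were harvested at day 3. No untransfected cells entered the comparison. The results rest on 1 cell line and 1 siRNA pool per group. The study states that, unless noted, its experiments had 3 or more biological replicates. The labels do not say that these replicates were separate cultures, so p-values measure the spread between these libraries.

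A snoRNA host gene carries, usually inside its introns, the sequences of small RNAs that guide the chemical modification of other RNAs. Box C/D snoRNAs (SNORD) direct 2′-O-methylation and box H/ACA snoRNAs (SNORA) direct the conversion of uridine to pseudouridine, mostly in ribosomal RNA, while the related scaRNAs act on spliceosomal RNAs in Cajal bodies. After splicing, the intron is trimmed down to the snoRNA, and the joined exons remain as a separate noncoding RNA. Several of these spliced RNAs are degraded during translation by nonsense-mediated decay, and several begin, like ribosomal protein mRNAs, with a C followed by a run of pyrimidines, the terminal oligopyrimidine start that ties translation to growth signals. Counts from polyadenylated RNA therefore report on the spliced host and not on the snoRNA.

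The first bases from the listed start of each host gene show whether such a sequence lies there. The windows below hold 10 bases before and 20 bases from the transcription start listed by RefSeq (GRCh38.p14), read 5′ to 3′ on the gene's strand, for the members whose level was lower in siMED12 in the blocked fit, in which the replicate number entered the model beside the treatment. Capitals mark the unbroken run of C or T from the start base, and a window without capitals has a purine as its start base.
SNHG4 (chr5:139274091-139274120, plus strand): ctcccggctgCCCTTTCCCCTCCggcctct
SNHG12 (chr1:28581854-28581883, minus strand): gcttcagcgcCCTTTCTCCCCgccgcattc
SNHG19 (chr16:2155339-2155368, minus strand): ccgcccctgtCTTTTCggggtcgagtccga
SNHG7 (chr9:136728165-136728194, minus strand): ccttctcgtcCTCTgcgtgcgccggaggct
SNHG26 (chr7:22854230-22854259, plus strand): taaacttgatCTCCgcagtgccctcccttt
SNHG1 (chr11:62855866-62855895, minus strand): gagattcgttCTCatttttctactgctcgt
EPB41L4A-AS1 (chr5:112160516-112160545, plus strand): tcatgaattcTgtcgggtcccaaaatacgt
DANCR (chr4:52712384-52712413, plus strand): tgcgcgccccgcccttgcccagagtcttcc
SNHG16 (chr17:76557754-76557783, plus strand): gggcggtctcgcgttcttttcgaggtcggc
SNHG17 (chr20:38435309-38435338, minus strand): gtgtggcctcagtccttcgccgtccctcgc
SNHG20 (chr17:77088633-77088662, plus strand): ttccggccggaagttgctgacggagctact
SNHG3 (chr1:28505933-28505962, plus strand): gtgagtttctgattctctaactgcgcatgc
SNHG29 (chr17:16438977-16439006, plus strand): ccttttgtgaggattgggatattccgactc
SNHG10 (chr14:95534853-95534882, minus strand): cttatgccggagcctcatcctactgcctta
GAS5 (chr1:173869026-173869055, minus strand): tcatgaattcagatgtgtttattttggagc

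Of the 29 members with a RefSeq promoter sequence, 7 (24.1%) began with a C inside a pyrimidine run of at least 5 bases, against 1429 of all 35116 promoters (4.07%). Such a start was present in 3 of the 15 printed members, SNHG4, SNHG12 and SNHG19, and in 3 of the 8 tested members that were not called, ZFAS1, SNHG5 and SNHG32. The last 3 are shown for that comparison, chosen after their values were seen.
ZFAS1 (chr20:49278632-49278661, plus strand): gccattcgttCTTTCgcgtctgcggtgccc
SNHG5 (chr6:85678714-85678743, minus strand): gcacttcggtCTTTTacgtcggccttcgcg
SNHG32 (chr6:31834906-31834935, plus strand): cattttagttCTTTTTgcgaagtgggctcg
The letters were read at 1 listed start per gene. For GAS5, SNHG3 and SNHG4 that start lies upstream of the span given by Gencode, by 1 base for SNHG4, and no window need be the start used in these cells. GAS5 is known as a terminal oligopyrimidine transcript, yet its listed start base is a purine. The counts above therefore hold for the listed starts only. The E-box CACGTG, which reads the same on both strands, was found within 300 bases around the start in 2 of the 29 members (6.9%), SNHG7 and SNHG30, and in 7.26% of all promoters. SNHG6, SNHG9, SNHG15 and SNHG25 had no promoter entry.

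The 6 libraries held 16136699 to 17012788 counts, and no 2 libraries of a group were alike within sampling noise. Levels are given as CPM, a gene's count relative to the TMM-adjusted size of its library. MED12 itself was at 67.8, 77.7 and 72.6 CPM in the siCtrl libraries and at 23.9, 14.97 and 30.1 CPM in the siMED12 libraries, a log2 fold change of -1.66 (SE 0.23, adjusted p = 0.0314, edgeR). The groups did not overlap. In bulk RNA, here and below, fewer cells with a transcript and less of it per cell cannot be told apart. Of the markers of 22Rv1 cells, HOXB13 was at 261 ± 40.4 CPM in siCtrl and 341 ± 39.3 CPM in siMED12 and KRT8 at 822 ± 101 and 615 ± 54.4 CPM (SD, n = 3). With the replicate block, HOXB13 was higher (adjusted p = 4.1e-10, edgeR) and KRT8 lower (adjusted p = 6.65e-12). Of 6 markers of other cell types, PTPRC, PECAM1, VWF and DCN averaged below 1 CPM in both groups. COL1A1 was at 19.8 ± 6.63 CPM in siCtrl and 20.1 ± 5.74 CPM in siMED12 and was not called. ALB was at 246 ± 76.9 and 177 ± 61.8 CPM (SD, n = 3) and was lower with the block (log2 fold change -0.49, adjusted p = 6.44e-12, edgeR), and the part of either in the results was not tested.

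The 33 host genes together took 0.128%, 0.138% and 0.179% of the counts in siCtrl replicates 1, 2 and 3, and 0.114%, 0.121% and 0.159% in the siMED12 replicates. Their summed level was lower in siMED12 by 13.6%, 16.9% and 11.9% within replicate numbers 1, 2 and 3, and SNHG29 supplied 26.2% to 26.7% of that sum in the siCtrl libraries. Per kilobase of exon, SNHG29, which hosts SNORD49A, SNORD49B and SNORD65, had the highest siCtrl level at 44.7 ± 8.35 CPM per kb (SD, n = 3). It was followed by SNHG1 at 28.9 ± 13.6, SNHG6 at 21.6 ± 3.74, GAS5 at 19.9 ± 7.87 and SNHG19 at 19.6 ± 3.39 CPM per kb. SNHG29 was above SNHG1 within each of the 3 siCtrl and 3 siMED12 libraries. From SNHG1 to SNHG19, each gene was above the next in some siCtrl libraries and below it in others. In siCtrl these neighbours therefore did not differ beyond their spread. In siMED12, SNHG6 was above GAS5 and GAS5 above SNHG19 in all 3 libraries, while SNHG1 was above SNHG6 in 2. SNHG14, second by CPM at 216 ± 10.2, spans 122609 exonic bases in the annotation and so stood at 1.76 ± 0.0832 CPM per kb.

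The 7 host genes that did not pass the filter were SNHG25, SNHG22, CYTOR, SNHG31, SNHG27, SNHG28 and SNHG18. SNHG28 and SNHG18 had no count in any library. For SNHG18 this allows a level of up to 0.176 to 0.186 CPM of the library total (3 counts, counting error only). For SNHG28 no such limit can be given, since 90.8% of its exonic bases are shared with other genes on the same strand. Reads in such bases were mostly left uncounted, as described below. CYTOR, which is abundant in several other tumour types, had 1 to 4 counts per library. SNHG25 had 6, 9 and 5 counts in siCtrl and 2, 2 and 5 in siMED12. SNHG22 had 14, 5 and 1 counts in siCtrl and 4, 6 and 1 in siMED12. SNHG31 had 3, 1 and 1 against 3, 4 and 3 counts, and SNHG27 had 1 count in 1 library of each group. These counts were too low for a comparison.

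The main comparison asked how the level of each host RNA differed between siMED12 and siCtrl. Without the replicate number in the model, DANCR was the single host gene called lower (adjusted p below 0.05), and 0 were called higher. In the background of all tested genes, 0.413% were lower and 0.151% higher. At an unadjusted p below 0.05, 7 of the 26 host genes (26.9%) were lower and 0 higher, beside 7.93% and 7.65% of all genes. With the replicate number as a block, 16 of the 26 (61.5%) were lower and 0 were higher, while among all tested genes 16.2% were lower and 17.1% higher. DESeq2's Wald test gave 2 lower host genes and 0 higher without the block, beside 2.69% and 1.78% of all genes, and 13 and 0 with it, beside 11.5% and 9.94%. Among the 368 lncRNA genes with a mean level of at least 10 CPM, 77 (20.9%) were lower and 78 (21.2%) higher in the blocked fit, and of the 20 host genes at that level 15 were lower.

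The 16 host genes that were lower in the blocked fit were SNHG4, SNHG26, SNHG20, DANCR, SNHG16, SNHG15, SNHG19, SNHG17, SNHG12, SNHG7, SNHG3, SNHG10, EPB41L4A-AS1, SNHG1, SNHG29 and GAS5. Their log2 fold changes ran from -0.93 for SNHG4 to -0.15 for GAS5, and each was lower in siMED12 in all 3 replicate pairs. Of the 26 tested host genes, 22 (84.6%) had a blocked log2 fold change below 0, beside 47.5% of all genes. The median log2 fold change was -0.31 in both fits, beside 0.02 for all genes and 0.06 for tested lncRNA genes. The median within replicate pairs was -0.27, -0.25 and -0.33, beside 0.02, -0.0003 and 0.03 for all genes. Of the 26, 19 (73.1%) were lower in every pair and 2 (7.69%), SNHG14 and SNHG11, were higher in every pair, while 27% and 30.6% of all genes were. The siMED12 libraries lay wholly below the siCtrl libraries for 6 host genes, SNHG16, DANCR, SNHG8, SNHG3, SNHG19 and SNHG30, which is 23.1% beside 10.9% of all genes. They lay wholly above for 0, beside 11.2% of all genes.

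Scaling to library size alone in place of TMM factors, which moved the median of all genes from 0.02 to 0.06, left 13 host genes lower and made 2 higher (SNHG14 and SNHG11) in the blocked fit, and left 0 lower without the block. The blocked calls of GAS5, EPB41L4A-AS1 and SNHG10 were lost under that scaling, under DESeq2's Wald test and without replicate number 3. SNHG10 was also lost without number 1 or 2, and GAS5 without number 2.

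**Figure D1:**
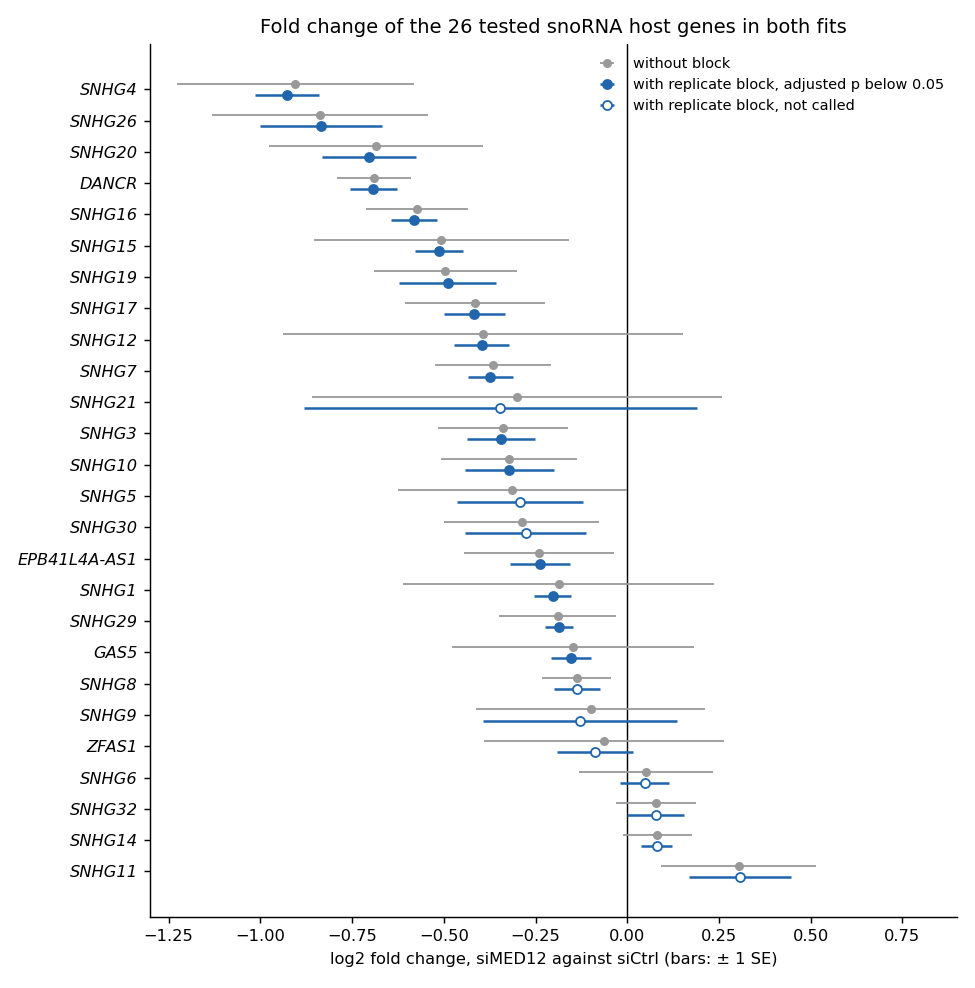
Log2 fold change (siMED12 against siCtrl, x axis) of the 26 tested snoRNA host genes, with bars of 1 SE, without (grey) and with (blue) the replicate number as a block. The point estimates of both fits nearly coincide, while the bars are much shorter with the block, most clearly for SNHG12 (SE 0.54 and 0.07) and SNHG1 (SE 0.42 and 0.05), and little changed for DANCR (SE 0.10 and 0.06).

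Hosts of box H/ACA snoRNAs made up 11 of the 33 members, and 7 of the 10 tested were lower in the blocked fit, with a median log2 fold change of -0.36. DANCR (chr4:52712325-52723623, plus strand), known for holding progenitor cells in an undifferentiated state and host of SNORA26, was at 67.1, 65.7 and 67.5 CPM in siCtrl and at 42.4, 37.6 and 44.2 CPM in siMED12. The siCtrl libraries were within 2 CPM of each other and every siMED12 library was well below them. The level fell by 0.69 on the log2 scale (SE 0.10, adjusted p = 0.041, edgeR), and the blocked fit gave -0.69 (SE 0.06, adjusted p = 2.47e-11). Without the block this call was lost when any 1 of the 6 libraries was left out, at adjusted p of 0.0608 to 0.204, with fold changes between -0.74 and -0.65.

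SNHG4 (chr5:139274102-139284899, plus strand), host of SNORA74A and SNORA74D, was at 28.8, 41.9 and 54.1 CPM in siCtrl and at 15.5, 17.7 and 33.6 CPM in siMED12. The groups overlapped, since siMED12 replicate 3 was above siCtrl replicate 1, but within each number the siMED12 library was lower, by 46.2%, 57.9% and 38.0%. The log2 fold change was -0.90 (SE 0.32, adjusted p = 0.226, edgeR) without and -0.93 (SE 0.09, adjusted p = 3.59e-11) with the block. SNHG15 (chr7:44983019-44986961, minus strand), host of SNORA9, was at 42.2, 62.2 and 94.6 CPM in siCtrl and at 31.96, 38.2 and 69.98 CPM in siMED12. Both groups were highest in replicate 3, and the pairs were lower by 24.3%, 38.6% and 26.0% (blocked log2 fold change -0.51, SE 0.07, adjusted p = 4.96e-08, edgeR).

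SNHG7 (chr9:136721366-136728184, minus strand), host of SNORA17A and SNORA17B, was at 63.4, 69.7 and 81.4 CPM in siCtrl and at 44.6, 56.1 and 65.8 CPM in siMED12. Only the highest siMED12 library reached above the lowest siCtrl library, and the blocked log2 fold change was -0.37 (SE 0.06, adjusted p = 4.59e-06, edgeR). SNHG17, host of SNORA71A to SNORA71D, was at 29.9, 25.2 and 36.5 CPM in siCtrl and at 20.7, 19.8 and 28.3 CPM in siMED12 (blocked log2 fold change -0.42, adjusted p = 1.12e-04). Its neighbour SNHG11, which hosts SNORA71E and SNORA60 and lies on the other strand of chromosome 20, was not lower. SNHG11 was at 8.98, 6.52 and 9.45 CPM in siCtrl and at 9.56, 9.18 and 12.1 CPM in siMED12, a blocked log2 fold change of 0.31 that was not called (SE 0.14, adjusted p = 0.0845).

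SNHG3, host of SNORA73A and SNORA73B, which act in the cleavage of the ribosomal RNA precursor, was at 31.2, 24.9 and 24.6 CPM in siCtrl and at 23.3, 16.7 and 23.8 CPM in siMED12. The groups did not overlap, but the difference within replicate number 3 was only 2.92%, beside 25.3% and 33.1% in numbers 1 and 2 (blocked log2 fold change -0.34, SE 0.09, adjusted p = 0.0035, edgeR). EPB41L4A-AS1, host of SNORA13, was at 22.2, 32.1 and 33.7 CPM in siCtrl and at 19.3, 27.5 and 27.7 CPM in siMED12 (blocked log2 fold change -0.24, adjusted p = 0.0212). SNHG8, host of SNORA24, was at 53.5, 54.9 and 56.7 CPM against 49.8, 48.1 and 52.2 CPM. These groups were apart, yet the log2 fold change of -0.14 was not called in either fit (blocked adjusted p = 0.0916, edgeR). With a correction for GC content and length in the blocked fit it was -0.22 and called (adjusted p = 0.0054). SNHG9, host of SNORA78, was at 2.61 ± 0.0486 CPM in siCtrl and 2.44 ± 0.870 CPM in siMED12 (SD, n = 3) and was not called.

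Hosts of box C/D snoRNAs were the largest class with 13 members, of which 11 were tested and 5 were lower in the blocked fit, at a median log2 fold change of -0.20. SNHG16 (chr17:76557727-76670985, plus strand), host of SNORD1A to SNORD1C, was at 69.7, 72.6 and 80.1 CPM in siCtrl and at 43.2, 46.2 and 59.97 CPM in siMED12. Every siMED12 library was below every siCtrl library. The log2 fold change was -0.57 (SE 0.14, adjusted p = 0.109, edgeR) without and -0.58 (SE 0.06, adjusted p = 9.68e-10) with the block.

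SNHG29 (chr17:16438767-16480249, plus strand), the highest host gene per kilobase, was at 337, 379 and 482 CPM in siCtrl and at 309, 326 and 416 CPM in siMED12. The difference was present in each pair, at 8.39%, 13.9% and 13.8% lower (blocked log2 fold change -0.19, SE 0.04, adjusted p = 1.99e-04, edgeR). SNHG1 (chr11:62851978-62855953, minus strand), which holds 8 SNORD genes, was at 64.5, 108 and 172 CPM in siCtrl and at 52.5, 94.5 and 156 CPM in siMED12. The spread between replicate numbers far exceeded the difference between groups, so the unblocked log2 fold change of -0.19 had an SE of 0.42 (adjusted p = 0.894) and the blocked one of -0.20 an SE of 0.05 (adjusted p = 0.00162, edgeR).

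SNHG26, host of SNORD93, was low, at 9.46, 5.44 and 8.90 CPM in siCtrl beside 5.46, 3.16 and 4.69 CPM in siMED12. Its pairs were lower by 42.2%, 42.0% and 47.3%, with a log2 fold change of -0.84 (SE 0.29, adjusted p = 0.22, edgeR) without and -0.83 (SE 0.17, adjusted p = 1.10e-04) with the block. SNHG19, a short host of SNORD60 on chromosome 16, was at 9.76, 12.5 and 13.8 CPM against 8.14, 7.83 and 9.64 CPM, without overlap (blocked log2 fold change -0.49, adjusted p = 0.00341).

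The other 6 tested box C/D hosts were not called. SNHG6, host of SNORD87 and among the highest per kilobase, was at 44.1, 57.1 and 62.5 CPM in siCtrl and at 48.6, 50.2 and 70.9 CPM in siMED12. The groups interleaved, the pairs went both ways, and the blocked log2 fold change was 0.05 (SE 0.07, adjusted p = 0.641, edgeR). SNHG14, the long transcript of the imprinted Prader-Willi region that runs antisense to UBE3A and holds the SNORD115 and SNORD116 clusters, had a blocked log2 fold change of 0.08 (SE 0.04, adjusted p = 0.143). With the correction for GC content and length that value turned to -0.12 (adjusted p = 0.0177), so its direction depended on that correction. SNHG32 stood at 0.08 (SE 0.08), ZFAS1, host of the SNORD12 family, at -0.09 (SE 0.10), SNHG5 at -0.29 (SE 0.17) and SNHG30 at -0.28 (SE 0.16), with blocked adjusted p-values of 0.202 to 0.569.

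GAS5 and SNHG12 hold snoRNAs of both classes, and both were lower in the blocked fit. GAS5 (chr1:173858559-173868882, minus strand), named for its accumulation in growth-arrested cells and a textbook terminal oligopyrimidine transcript, was at 70.3, 81.3 and 142 CPM in siCtrl and at 66.6, 67.2 and 132 CPM in siMED12. The replicate 3 libraries of both groups stood far above the others, and the log2 fold change was -0.15 without (SE 0.33, adjusted p = 0.892, edgeR) and with the block (SE 0.05, adjusted p = 0.0235). SNHG12 (chr1:28578538-28583132, minus strand) was at 17.7, 41.9 and 67.97 CPM in siCtrl and at 12.9, 32.6 and 51.7 CPM in siMED12. Its level differed several-fold between replicate numbers within each group, while the pairs were lower by a like 27.1%, 22.2% and 23.9% (blocked log2 fold change -0.40, SE 0.07, adjusted p = 5.02e-05).

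Among hosts of scaRNAs, SNHG20 (chr17:77086716-77099902, plus strand), host of SCARNA16, was at 11.1, 13.4 and 17.98 CPM in siCtrl and at 5.94, 8.24 and 12.3 CPM in siMED12. It was lower by 46.6%, 38.5% and 31.8% within pairs (blocked log2 fold change -0.70, SE 0.13, adjusted p = 2.63e-05, edgeR), and without the block the log2 fold change was -0.69 (adjusted p = 0.31). SNHG10, host of SCARNA13, was at 11.7, 12.5 and 15.5 CPM against 9.21, 10.5 and 12.1 CPM (blocked log2 fold change -0.32, SE 0.12, adjusted p = 0.0372). SNHG21, host of SCARNA15, averaged below 1 CPM, and its siMED12 value rested on replicate 3, without which the blocked log2 fold change went from -0.35 to 0.26. RefSeq lists no snoRNA within CYTOR, SNHG27 or SNHG28, none of which was tested. Gencode places SNORA70 in SNHG27 and an unnamed snoRNA in SNHG28, with 0 and 2 counts in all.

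**Figure D2:**
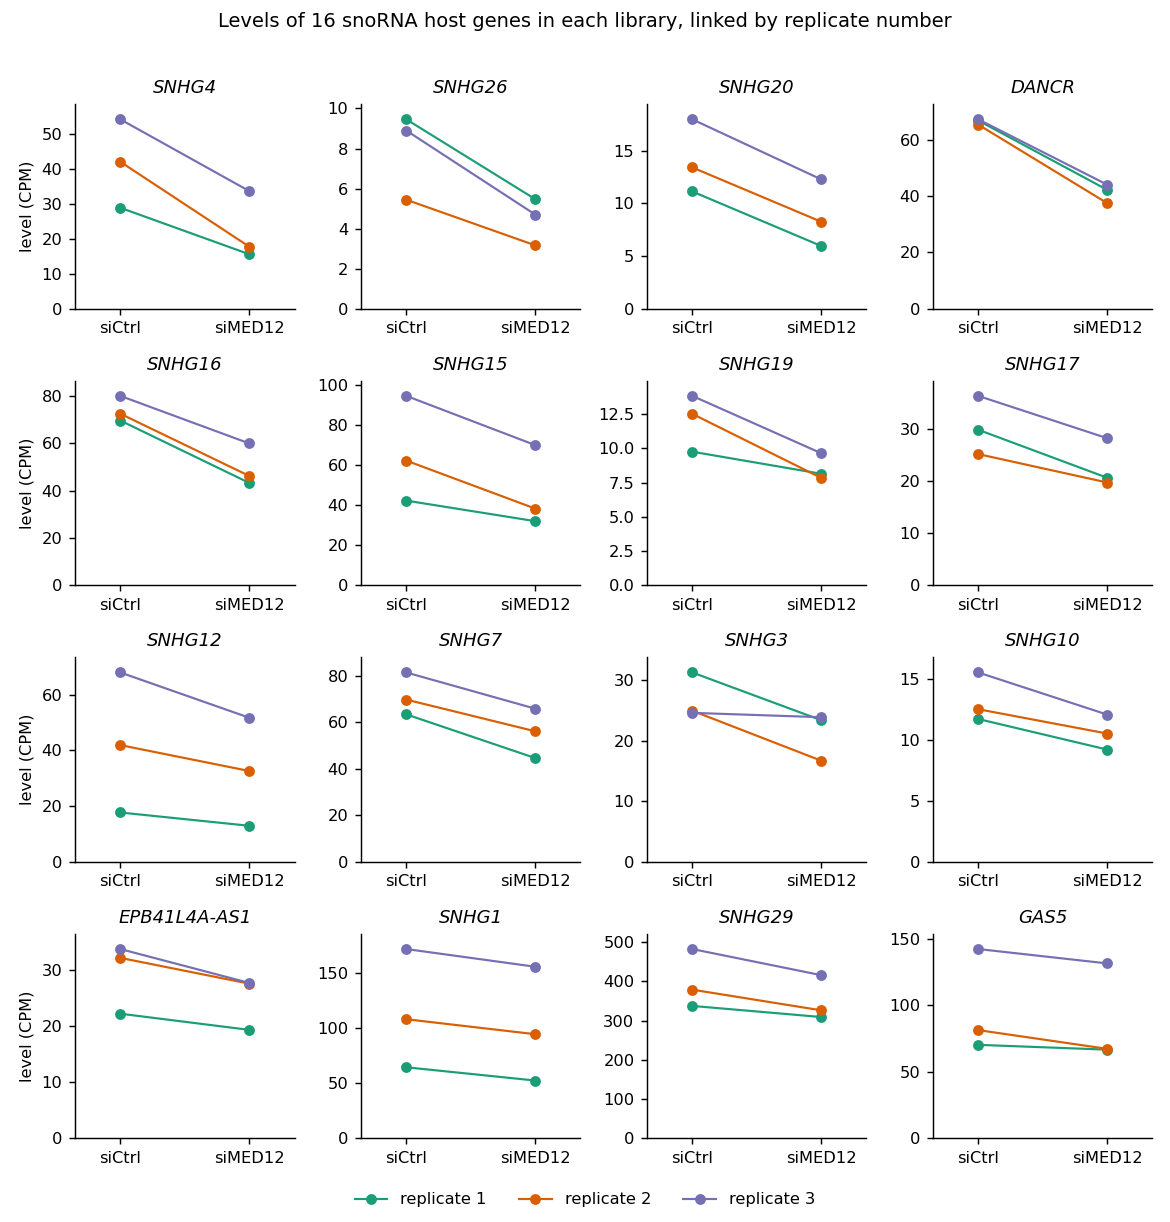
Level in CPM (y axis, linear from 0) of the 16 host genes that were lower in the blocked fit, in each siCtrl and siMED12 library, with a line joining the libraries of the same replicate number. All 48 lines run downward. SNHG1, SNHG12, SNHG15 and GAS5 show replicate 3 far above replicate 1 in both groups, and DANCR shows the 3 siCtrl points on top of each other.

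Host genes also differed between replicate numbers, as many other genes did. In the blocked fit, 17 of the 26 (65.4%) differed between numbers at an adjusted p below 0.05, beside 47.1% of all tested genes. Of genes with at least 10 CPM, 61.9% differed, and of the lncRNA genes with at least 10 CPM 65.5% did. The share of the host genes was thus near that of genes at such levels. Replicate 3 was the highest library in both groups for 20 of the 26 (76.9%), beside 27.1% of all genes and 49.7% of those lncRNA genes. Both held for 15 (57.7%), beside 17% of all genes and 43.2% of those lncRNA genes. SNHG12 was 3.85-fold higher in replicate 3 than in replicate 1 of siCtrl and 4.01-fold higher in siMED12 (adjusted p for replicate number 3.84e-19, edgeR). The ratios were 2.67 and 2.97 for SNHG1, 2.24 and 2.19 for SNHG15, 2.03 and 1.97 for GAS5, 1.88 and 2.16 for SNHG4, and 1.87 and 2.30 for ZFAS1. DANCR stood apart from these, with ratios of 1.01 and 1.04 (adjusted p = 0.344), as did SNHG8 with 1.06 and 1.05. The share of counts from mitochondrially encoded genes moved in the same order, at 4.43%, 6.31% and 9.996% in siCtrl and 4.79%, 6.03% and 10.1% in siMED12 replicates 1, 2 and 3. The labels do not say what a replicate number stands for, and the part of the mitochondrial share in these differences was not tested.

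**Figure D3:**
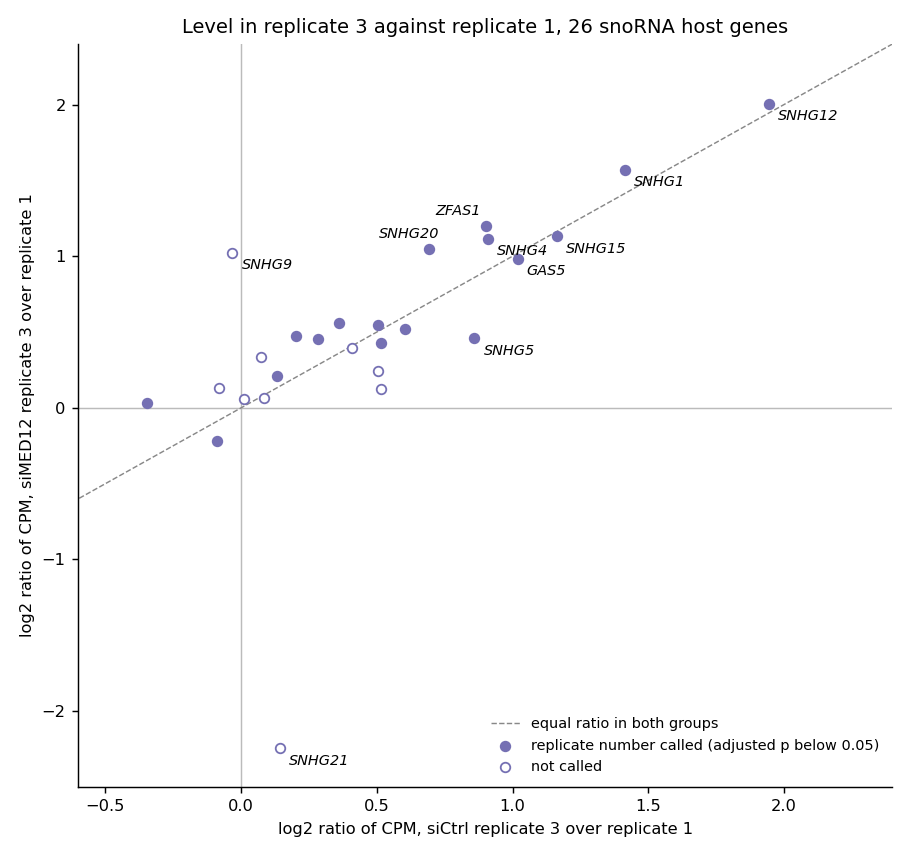
Log2 ratio of CPM in replicate 3 over replicate 1 for the 26 tested host genes, siCtrl on the x axis and siMED12 on the y axis. Filled points differed between replicate numbers in the blocked fit, and the dashed line marks equal ratios. SNHG12, SNHG1, SNHG15 and GAS5 lie far from 0 and close to that line, and SNHG21, below 1 CPM, lies farthest from it.

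Several host genes overlap or adjoin genes whose own counts bear on how their values are read. Counting used the strand: of 339 genes lying wholly within exons of a well-covered gene on the opposite strand, 292 (86.1%) had counts, while of 229 in the same position on the same strand 13 (5.68%) did. Reads shared with a gene on the same strand were therefore mostly left uncounted, which touches 29.1% of the exonic bases of SNHG32, 20.7% of SNHG9, 15.4% of SNHG1, 14.0% of SNHG4, 13.7% of SNHG5, 13.5% of SNHG19 and 72.9% of SNHG21. Among host genes below the filter, it touches 90.8% of SNHG28 and 39.7% of SNHG25. ERVMER34-1, which lies on the opposite strand from DANCR and shares 127 exonic bases with it, fell from 18.9 ± 2.26 CPM to 9.07 ± 0.286 CPM (log2 fold change -1.06, adjusted p = 0.041, edgeR). RCC1, encoding a nucleotide exchange factor for the small GTPase Ran, shares 242 exonic bases with SNHG3 on the same strand. RCC1 was at 145 ± 11.9 and 95.8 ± 10.0 CPM (blocked log2 fold change -0.60, adjusted p = 1.38e-12).

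Of the other neighbours on the opposite strand, 3 were higher and 2 lower in the blocked fit. EPB41L4A, opposite EPB41L4A-AS1, was at 2.30 ± 0.34 CPM in siCtrl and 3.68 ± 0.618 CPM in siMED12 and was higher with the block (log2 fold change 0.67, adjusted p = 0.0251, edgeR). GAS5-AS1, opposite GAS5, was at 1.75 ± 0.252 and 3.18 ± 0.486 CPM and was also higher with the block (0.85, adjusted p = 0.0107). UBE3A, opposite SNHG14, was at 134 ± 19.3 and 148 ± 14.9 CPM and was higher with the block (0.15, adjusted p = 0.0126). DIPK1B, opposite SNHG7, was lower (-0.40, adjusted p = 6.33e-05), as was GLRX5, opposite SNHG10 (-0.30, adjusted p = 7.16e-05). None of these 5 was called without the block.

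The snoRNAs themselves were not measured to a useful depth. Of the 86 snoRNA or scaRNA entries that touch a member's exon, 1 had any count, SNORD12B inside ZFAS1 with 2 counts in all 6 libraries. Of 59 entries inside a member but clear of its exons, 9 had counts and 2 passed the filter. SNORD99 in SNHG12 had 6, 17 and 30 counts in siCtrl and 8, 6 and 23 in siMED12, and SNORA71B in SNHG17 had 16, 13 and 35 against 26, 11 and 28 counts. Neither was called (adjusted p = 0.791 and 0.997, edgeR), and the counts do not tell a snoRNA apart from the unspliced intron around it.

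The genes that act with the host genes were examined as lists. The 8 core proteins of the snoRNA particles had a median log2 fold change of -0.48, and 2 were lower without and 7 (87.5%) with the block, none higher. Among all genes with a mean of at least 10 CPM, 0.647% were lower without the block. With the block, 23.2% of those genes were lower and 22.9% higher. FBL, the methyltransferase of box C/D particles, was at 197 ± 10.3 CPM in siCtrl and 126 ± 4.43 CPM in siMED12 (log2 fold change -0.65, SE 0.08, adjusted p = 0.0297, edgeR). DKC1, the pseudouridine synthase of box H/ACA particles and itself a snoRNA host, was at 156 ± 8.25 and 105.5 ± 6.92 CPM (-0.56, SE 0.09, adjusted p = 0.0449). SNU13, which binds box C/D RNAs, and NHP2, which binds box H/ACA RNAs, were lower with the block by -0.53 and -0.50, and NOP10 was the core protein that was not called (-0.08, adjusted p = 0.382).

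Of 12 assembly factors, 0 were called without the block, 9 (75%) were lower with it and 0 higher, at a median of -0.27. The largest differences with the block were those of NOLC1, the Cajal body and nucleolar chaperone (456 ± 50.6 to 306 ± 8.95 CPM, log2 fold change -0.57, adjusted p = 4.88e-14, edgeR), and NUFIP1, the assembly platform protein (-0.57, adjusted p = 1.93e-04). RUVBL1, an ATPase of the assembly chaperone, stood at -0.44, and SHQ1, a chaperone of DKC1, at -0.37. Of 18 factors of nonsense-mediated decay, which degrades several of the host RNAs, 0 were called without the block, and 5 (27.8%) were lower and 3 (16.7%) higher with it, at a median of -0.07. Among all genes of at least 10 CPM, 23.2% were lower and 22.9% higher with the block, so these shares are near the background. MAGOH (-0.36), DHX34 (-0.25), EIF4A3 (-0.16) and ETF1 (-0.15) were among the lower ones, and SMG6 (0.23), UPF3A (0.20) and PNRC2 (0.19) were higher.

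Protein-coding genes that host snoRNAs were examined beside the noncoding hosts. Of 23, 1 (DKC1) was lower without the block, and 15 (65.2%) were lower and 1 (4.35%) higher with it, at a median of -0.29. RCC1, already given, PPAN, which acts in large ribosomal subunit assembly (-0.57, blocked adjusted p = 8.25e-04, edgeR), and NOP56, a core protein of box C/D particles (-0.44, adjusted p = 6.81e-11), were among the lower ones. EIF4A2, a translation initiation helicase, was higher (0.19, SE 0.05, adjusted p = 0.0013). The next counts cover every protein-coding gene whose span holds a snoRNA or scaRNA on the same strand in Gencode. Of the 28 tested ribosomal protein hosts, 22 (78.6%) were lower and 0 higher with the block, at a median of -0.18. Among the 199 other tested hosts 59 were lower and 42 higher, at a median of -0.01. The latter shares, 29.6% and 21.1%, stand beside 16.2% and 17.1% of all tested genes and 23.2% and 22.9% of genes with at least 10 CPM.

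**Figure D4:**
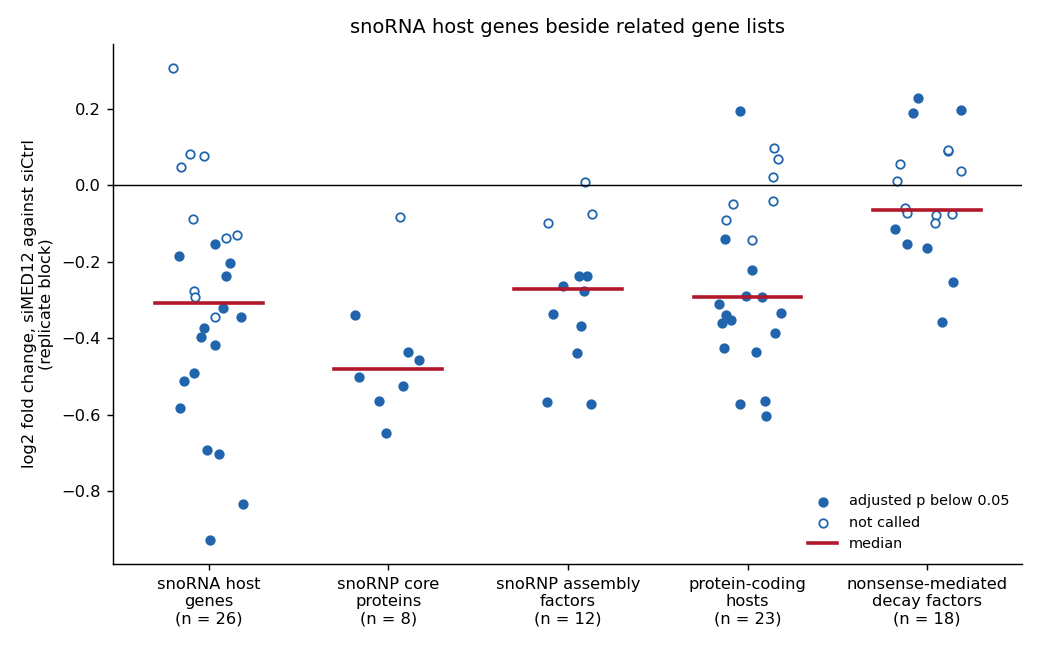
Log2 fold change with the replicate block (y axis) for the snoRNA host genes and 4 related lists, 1 point per tested gene, filled where the adjusted p was below 0.05, with the median of each list as a red line. The medians lie at -0.31 for the host genes, -0.48 for the core proteins, -0.27 for the assembly factors, -0.29 for the protein-coding hosts and -0.07 for the decay factors.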

How the data were processed

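RNA-seq counts of 6 libraries were used, with groups as labelled. Poly(A) RNA had been captured for strand-specific libraries at a sequencing company, and Rsubread served for alignment and counting against GRCh38 (.p13) and Gencode release 43, according to the labels and methods. The deposited counts are the authors' raw read numbers for 62703 genes. The deposited log2 CPM values were recomputed from them and differed by at most 4.96e-09. The version of Rsubread and its handling of multi-mapped reads are not given in the sources used here.

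Counts were filtered by expression in the 2 groups, scaled by TMM and tested with edgeR 4.0.16 (quasi-likelihood F-test, R 4.3.3) on treatment alone, two-sided, with Benjamini-Hochberg adjustment over 17901 genes and a threshold of 0.05. CPM are counts over TMM-adjusted library sizes. Limma 3.58.1 and DESeq2 1.42.0 served as alternatives, and the closing section gives their effect. Deviations from the group means correlated at 0.532, 0.373 and 0.643 between libraries of the same replicate number and at -0.46 to -0.0233 otherwise, so the numbers were taken to pair the libraries and the blocked fit is given beside the unblocked one. The common dispersion was 0.0368 without and 0.00228 with the block. On simulated data for this comparison (17576 genes, 200 changed 2-fold), 39% of the changes were recovered with 0 false calls without the block, and 90% with 6 false calls with it. The simulation kept the spread between replicate numbers and drew its noise at the dispersion of the blocked fit, so the pairing was built in. It therefore cannot decide between the 2 fits. Every planted change was also larger than those called among the host genes.

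Coordinates and exon lengths are from Gencode 44 (GRCh38), snoRNA names and promoter sequences from RefSeq (GRCh38.p14). Exonic length counts every annotated exon once, so long unspliced isoforms lower a level per kilobase. Values in each library were given for host genes called in either fit, for the 5 with the highest level per kilobase and, chosen after their values were seen, for SNHG8 and SNHG11. From related lists up to 4 genes per direction were named by size of change among those of at least 10 CPM. The members, lists and rules were chosen with earlier results of these data known. Genes outside the lists were not analysed here.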

Additional observations from a re-analysis of the deposited data

How the results depend on the processing

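In the main fit 74 of all tested genes were lower and 27 higher in siMED12, and 1 snoRNA host gene was lower and 0 higher. For all genes, the lower count was 49 with library size only, 118 with a mean of at least 1 CPM, 290 (186 higher) with no filter beyond 1 count and 482 (319 higher) with DESeq2's Wald test. The replicate block gave 2908 lower and 3058 higher. Within the block, the counts were 2413 and 3807 with library size only, 2063 and 1780 with DESeq2's test, 3069 and 2960 with its size factors, and 3334 and 2428 with the GC and length correction.

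The lower host genes numbered 0 with library size only (6 at an unadjusted p below 0.05), 2 with DESeq2's Wald test and 3 without the filter. The replicate block gave 16, and within it there were 13 with library size only (2 higher), 13 with DESeq2's test, 16 with its size factors and 18 with the GC and length correction. Within the block, leaving out replicate number 1, 2 or 3 left 15, 14 and 13 lower host genes, all among the 16, and 2578, 2654 and 2579 lower and 2070, 2199 and 2375 higher genes overall. Without the block, leaving out 1 library gave 0 lower host genes in each of the 6 cases (2 to 9 at an unadjusted p below 0.05), 0 to 37 lower and 0 to 8 higher genes overall. The counts of host genes lower (19) or higher (2) in all pairs did not change with either other scaling.

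Without the block, the range of log2 fold changes over left-out libraries crossed 0 for SNHG12 (-0.90 to 0.12), GAS5 (-0.55 to 0.22), SNHG5 (-0.53 to 0.035), SNHG6 (-0.14 to 0.16, also -0.10 without siCtrl replicate 1), SNHG1 (-0.64 to 0.22, also 0.10 without siMED12 replicate 1), SNHG21 (-0.77 to 0.11), SNHG9 (-0.40 to 0.10) and ZFAS1 (-0.45 to 0.18, also 0.16 without siMED12 replicate 1). With the block, SNHG6 went to -0.015 without replicate number 1 and -0.026 without number 3, SNHG21 to 0.26 without number 3, SNHG9 to 0.084 without number 1, and SNHG14 to -0.12 with the GC and length correction. The cause was not tested. Fold changes of the 26 tested host genes held their direction and side of the threshold in 382 of 519 alternative values. Of the others, 114 passed the threshold where the unblocked fit did not, 7 were calls of DANCR that were lost and 16 changed sign. Depth limits the 7 host genes below the filter and SNHG21.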
